A study of Mus musculus with 10 samples.

Results

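Embryonic lenses of a conditional Klf4 mutant mouse, labelled Klf4CN, were compared with wild type lenses of the same age across every gene of the array that carries a single gene symbol. The arrays were chosen by title: 3 arrays of wild type (WT) and 3 of Klf4CN whole lenses at embryonic day 16.5 (E16.5), which are 6 of the series' 10 arrays. No measured value entered that choice. Of 18193 genes with a single symbol, 13440 passed a filter on dim signals and were tested. The other 4 arrays, of adult lenses at postnatal day 56, are not compared here. They lent their replicate spread to the fit. They also entered the mean signal that set the filter and the probe set standing for each gene. Of the tested genes, 415 had a mean below the filter in both E16.5 groups.

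Each E16.5 array measured total RNA of an independent preparation of whole lenses, pooled from 5 embryos, amplified and biotin-labelled from the 3′ end and hybridised to an Affymetrix mouse array. WT lenses carried the genotype "wild type" in the labels, and the mutant lenses a conditional null of Klf4; no agent was given to either group. The labels name no Cre driver, strain, sex or littermate status for either group. As background, the published Klf4CN mouse deletes a floxed Klf4 with the Le-Cre transgene, which is driven by a Pax6 promoter in the surface ectoderm that forms lens and cornea. Whether the WT lenses here carried that transgene is not stated in the labels. Because embryos were pooled, the p-values below measure the spread between pools and not between embryos, and 3 arrays a group limit the precision of every value.

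Klf4 is a zinc finger transcription factor of the Kruppel-like family. It binds GC-rich and CACCC sequences, marks epithelia such as skin, gut and cornea, and is known in other cells both to activate Cdkn1a, the gene of the cell cycle inhibitor p21, and to act against p53. The lens is a closed epithelial vesicle: a front layer of dividing epithelial cells gives rise at its equator to fibre cells, which leave the cell cycle, fill with crystallins and lose their nuclei. p53 is a transcription factor stabilised by DNA damage and other stress; its targets stop the cell cycle (Cdkn1a), restrain p53 itself (Mdm2, Ccng1), repair DNA (Ercc5, Polk, Rrm2b) or promote cell death (Bbc3, Pmaip1, Perp).

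Values are deposited linear signals, which had been brought on each array to a common trimmed mean of 500, and fold changes are differences of log2(signal + 16), so that changes of dim genes are understated. A gene was called at a limma adjusted p (Benjamini-Hochberg) under 0.05. By that rule 1 of 13440 genes was called, which is 0.00744%. At an unadjusted limma p under 0.05 there were 345 genes higher (2.57%) and 261 lower (1.94%) in lenses labelled Klf4CN. With 3 arrays a side, the lowest mutant signal lay above the highest WT signal for 693 genes (5.16%), and the highest mutant signal lay below the lowest WT signal for 893 genes (6.64%). These 2 shares are the background for every count of non-overlapping genes below. The median log2 difference of all tested genes was -0.0001, and the percentiles 5 and 95 were -0.34 and 0.54. Beyond 1 on the log2 scale, 58 genes were higher and 13 lower without overlap. Gene lists are described by their medians, and 26 of the 31 medians moved by more than 1.5 times when 1 of the 6 arrays was left out; those of the p53 targets, pigment cells, glycolysis, lens epithelium and lens fibre genes did not.

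The 6 arrays had median signals between 63 and 76.9. Correlations of log2 signals across the tested genes were 0.9706 to 0.9811 within a group and 0.9577 to 0.9809 between groups, so the genotype did not part the arrays as a whole. Principal component 1 took up 36.7% of the variance and ran from WT replicate 1 to Klf4CN replicate 2. Its high end was led by retinal genes, described below. The control probe sets for 18S ribosomal RNA differed between the groups: the 5′ probe set read 1155, 2413 and 2038 on the WT arrays against 21662, 22776 and 20897 on the Klf4CN arrays. Its part in the results was not tested. Spiked or housekeeping control probe sets for bacterial BioB, BioC and Cre and for Gapdh differed by much less, for example Gapdh 5′ at a mean of 35690 on WT and 31850 on Klf4CN arrays.

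The targeted gene was examined first. Klf4 read 775, 1015 and 428 on the WT arrays and 1360.3, 805 and 1072 on the Klf4CN arrays. The groups overlapped, and the lowest signal was on a WT array. The log2 difference was 0.59 ± 0.28 (SE), higher in the mutant label and not past the test (limma adjusted p = 0.9998). It was 0.25 without WT replicate 3, the array of lowest signal, and 0.85 without WT replicate 2. A second Klf4 probe set read 393, 442 and 205 on the WT arrays and 702, 434 and 479 on the Klf4CN arrays, a log2 difference of 0.65. Neither probe set showed the lower Klf4 signal that the label names. Where these 3′ probe sets lie relative to the deleted part is not in the labels, and probes that lie outside the deletion do not check it. All directions below are therefore those of the lenses labelled Klf4CN.

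Cdkn1a was the only gene called. Its inhibitor p21 binds cyclin-dependent kinases and holds cells in G1, and it is the best known p53 target. It rose from signals of 433, 416 and 284 on the WT arrays to 1039.6, 1115 and 1613 on the Klf4CN arrays. All 3 mutant arrays were above all 3 WT arrays, and the lowest mutant signal was above the highest WT signal by a wide margin. The log2 difference was 1.69 ± 0.20 (SE) (limma adjusted p = 0.0211), a 3.33-fold ratio of means. A second Cdkn1a probe set gave 135, 179.7 and 50.3 on the WT arrays against 420.4, 567 and 667 on the Klf4CN arrays, a log2 difference of 2.16. When the 6 E16.5 arrays were fitted alone, no gene was called, Cdkn1a had a limma adjusted p of 0.135, shared with other genes as the smallest, and 937 genes were at an unadjusted p under 0.05. The call was also lost without WT replicate 1 (limma adjusted p = 0.0528), WT replicate 2 (0.073), Klf4CN replicate 3 (0.0781) or any 1 of the 4 adult arrays (0.0592 to 0.0684), while the log2 difference over those fits stayed between 1.495 and 1.79.

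The upstream sequence of the genes that led the p53 target list is shown because Klf4 binds CACCC and GC boxes and p53 binds its own half-site. Windows of 300 bases, from 250 before to 50 after an annotated start, were taken from RefSeq (GRCm38.p6) and matched for Cdkn1a, Phlda3 and Eda2r, with none matched for Trp53inp1. Capitals mark CACCC boxes, which read GGGTG where they lie on the opposite strand, and p53 half-sites; GC boxes are not in capitals. The sequences are the first Cdkn1a start at chr17:29090729-29091028 (+ strand), Phlda3 at chr1:135765835-135766134 (+ strand) and Eda2r at chrX:97377160-97377459 (- strand).
Cdkn1a: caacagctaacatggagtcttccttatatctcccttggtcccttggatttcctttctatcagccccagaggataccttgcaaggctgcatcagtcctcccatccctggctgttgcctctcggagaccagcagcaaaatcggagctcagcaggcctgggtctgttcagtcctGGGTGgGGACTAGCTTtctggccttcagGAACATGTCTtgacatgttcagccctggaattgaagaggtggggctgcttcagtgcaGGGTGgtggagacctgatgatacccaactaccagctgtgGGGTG
Phlda3: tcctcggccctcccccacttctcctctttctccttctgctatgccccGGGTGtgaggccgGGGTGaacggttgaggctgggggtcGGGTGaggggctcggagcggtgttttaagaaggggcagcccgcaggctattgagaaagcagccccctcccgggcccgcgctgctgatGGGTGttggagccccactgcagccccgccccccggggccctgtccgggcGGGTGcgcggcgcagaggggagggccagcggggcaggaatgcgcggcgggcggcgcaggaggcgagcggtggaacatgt
Eda2r: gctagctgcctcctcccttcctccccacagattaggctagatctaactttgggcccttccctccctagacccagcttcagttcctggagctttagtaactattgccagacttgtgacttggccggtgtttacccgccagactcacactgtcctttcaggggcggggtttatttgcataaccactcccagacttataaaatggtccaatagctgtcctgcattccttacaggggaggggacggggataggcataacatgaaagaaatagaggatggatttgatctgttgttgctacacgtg
The first Cdkn1a window held 3 CACCC boxes, all on the minus strand, and a p53 half-site match at bases 178 to 187 and another at bases 200 to 209, with no overlap between them. A second Cdkn1a start window, at chr17:29093519-29093818, held 2 GC boxes (GGGCGG) and neither of the other motifs. Phlda3 held 5 CACCC boxes on the minus strand and 3 GC boxes, of which the GC box at bases 218 to 223 overlapped the CACCC box at bases 222 to 226. Eda2r held 1 GC box. On either strand, CACCC was found in 57.5% of all 32851 windows in the table, GGGCGG in 35.7% and the p53 half-site in 8.36%. Counted per gene over any of its start windows, the half-site was in 8 of the 24 listed p53 targets with a window (33.3%) against 8.49% of the 10843 tested genes with one. The CACCC box was in 12 of the 24 (50%) against 67.4%, and the GC box in 21 (87.5%) against 66.5%. These matches describe letters in a window and not binding. The list was made of known p53 targets, so its half-site share can follow from that choice and is no result about these lenses.

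Genes of the p53 target list lay mostly above WT. Of 32 listed genes 30 were tested, and 26 had a log2 difference above 0. Without overlap 13 were higher (43.3%, against 5.16% of all genes) and 1 was lower. The lower one was the listed p27 inhibitor gene Cdkn1b, at -0.13, or 0.092 with the mean of its probe sets. The median log2 difference was 0.25, against -0.0001 for all genes. Cdkn1a alone passed the test. Mean log2(signal + 16) over the 30 genes was 9.25, 9.23 and 9.21 on the WT arrays and 9.61, 9.57 and 9.70 on the Klf4CN arrays, so that the WT arrays were alike and the mutant arrays all stood above them. Eda2r was the only tested member with a WT mean below the filter of about 45; it passed the filter through the arrays where it was high. Over the other 29 genes, 12 were higher without overlap and the median was 0.23. The list was assembled with earlier results of these data known, and its counts are a description.

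After Cdkn1a, the p53 targets of smallest p were Phlda3, Eda2r, Trp53inp1, Ephx1 and Ccng1, and none of them passed the test. Phlda3, an inhibitor of Akt signalling, read 303, 304 and 387 on the WT arrays and 646, 673 and 745 on the Klf4CN arrays. Its log2 difference was 1.03 ± 0.15 (SE) (limma adjusted p = 0.0595). Eda2r, a death receptor of the TNF receptor family, read 36.9, 31.8 and 19.8 in WT and 144, 147 and 207 in lenses labelled Klf4CN. All mutant arrays of both genes were above all WT arrays. The Eda2r difference was 2.00 ± 0.31 (SE) (limma adjusted p = 0.0683). Trp53inp1, a stress-induced partner of p53, read 749.7, 872 and 791 against 1279, 1291 and 1499, a difference of 0.74 ± 0.14 (SE). Ephx1, microsomal epoxide hydrolase, read 410.3, 346 and 483 against 729, 615 and 654, a difference of 0.68 ± 0.13 (SE). Neither gene's groups overlapped, and both had a limma adjusted p of 0.257. Ccng1 encodes cyclin G1, which guides a phosphatase to Mdm2. Its signals were 5756, 5086 and 3869.9 in WT and 7013, 6601 and 9461 in the mutant label, a log2 difference of 0.65 ± 0.15 (SE) (limma adjusted p = 0.592). The 2 further Ccng1 probe sets gave 0.68 and 0.53, each without overlap.

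**Figure D1:**
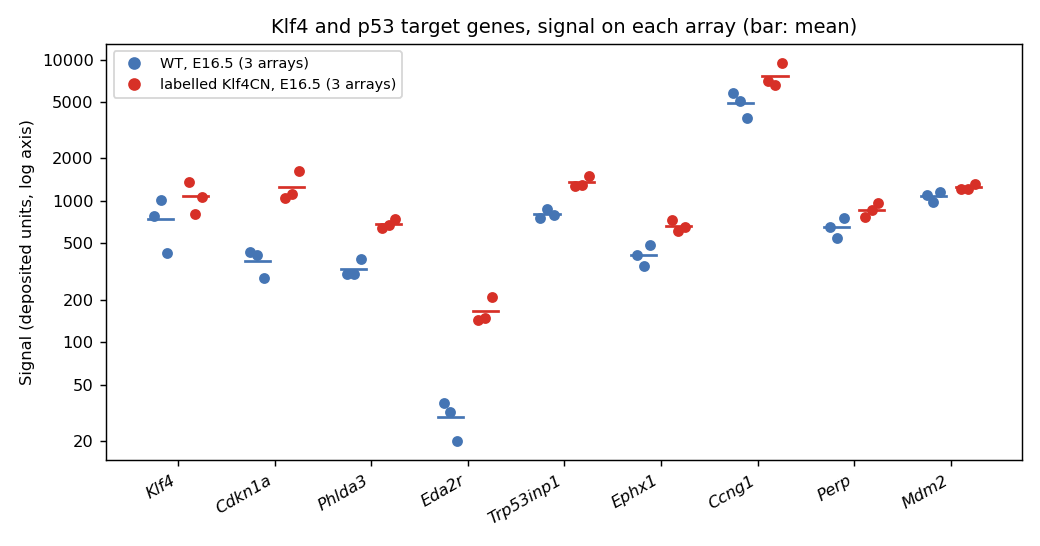
Signals of Klf4 and 8 p53 target genes on each of the 6 arrays (log axis, deposited units; points are arrays and bars are group means). Klf4 overlaps between the groups, while the 3 arrays labelled Klf4CN lie above the 3 WT arrays for the other 8 genes, with log2 differences from 0.21 (Mdm2) to 2.00 (Eda2r).

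Smaller differences followed among the effectors of p53. Perp, a desmosomal membrane protein needed for p53-driven death, read 649.9, 547 and 758 in WT and 765, 854 and 960 in lenses labelled Klf4CN, a difference of 0.40 ± 0.13 (SE). Mdm2, the ligase that degrades p53, read 1107, 982 and 1152 against 1215, 1212 and 1311, a difference of 0.21 ± 0.12 (SE). Both were above WT on all 3 arrays with narrow gaps. Polk, a translesion DNA polymerase, Zmat3, an RNA-binding target, Gtse1, a regulator of p53 in G2, Plk2, a stress kinase, and Tnfrsf10b, a death receptor, were also higher without overlap, with log2 differences of 0.52, 0.27, 0.63, 0.44 and 0.31. With the mean of their probe sets Plk2 gave -0.028 and Mdm2 0.032. Pltp, Pmaip1 and Ercc5 had differences of 0.54, 0.74 and 0.39 with overlap. The BH3-only death gene Bbc3 (0.12), the antiproliferative Btg2 (0.076), the exonuclease Aen (0.0094), the nucleotide supply gene Rrm2b (0.083), the sestrins Sesn1 (0.23) and Sesn2 (0.13) and the death receptor Fas (0.092) all overlapped. The groups overlapped for 16 of the 30 targets. None of the genes in this paragraph passed the test; their limma adjusted p-values ran from 0.938 to 0.9998.

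Regulators of p53 lay on both sides of WT. Of 8 tested genes of the p53 regulator and damage response list, 5 were above 0, and the median was 0.13. The damage kinase Atr (log2 0.16) alone was higher without overlap, against 5.16% of all genes. The inhibitor Mdm4 read 586, 474 and 691 in WT against 529.5, 524 and 565, and the phosphatase Ppm1d 558, 732 and 501 against 624, 742 and 632. Both overlapped. The damage kinase Atm had a difference of 0.091, the checkpoint kinase Chek1 -0.014 and Chek2 0.29. The value furthest from 0 was that of Trp73, the p53 relative p73, which read 29.7, 62.3 and 43.2 in WT against 3.4, 27.6 and 34.4, a difference of -0.77 ± 0.46 (SE) with overlap.

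Other genes of G1 control did not share the size of the Cdkn1a difference. Of 24 tested, 4 were higher and 3 lower without overlap, against 5.16% and 6.64% of all genes. The median was 0.059. The D-type cyclin Ccnd2, which drives G1, read 9831, 9155 and 9736 in WT and 11453, 11473 and 11471 in lenses labelled Klf4CN, a difference of 0.26 ± 0.093 (SE). Cdk6, its partner kinase, gave 0.42 and E2f1, an activator of S phase genes, 0.15, both higher without overlap. The kinase Cdk4 read 3778, 3728 and 3739 in WT against 2698, 3537 and 3333, a difference of -0.24, and all mutant arrays were below WT. Cdkn1c, the p57 inhibitor that lens fibre cells use to leave the cycle, read 26531, 26777 and 28740.3 against 25585, 24904 and 23139, a difference of -0.16. Cdkn1b, the p27 inhibitor, read 4431, 4771 and 4638 against 4261, 4321 and 4036 (-0.13, but 0.092 with the mean of its probe sets). Both inhibitors were lower without overlap. Except for Cdkn1a none passed the test (limma adjusted p = 0.9998 for Ccnd2).

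Genes of DNA replication and mitosis lay above 0 almost without exception, by small amounts. Of 29 tested, 28 had a positive difference, 3 were higher without overlap (10.3%, against 5.16%) and the median was 0.20. Kif11, a spindle motor, read 359, 347 and 418 in WT and 467, 546 and 538 in the mutant label, a difference of 0.45 ± 0.19 (SE). The kinetochore genes Bub1 (0.31) and Cenpe (0.37) were the other two without overlap. The proliferation marker Mki67 read 528, 1003 and 878 against 740.1, 1129 and 878 and Pcna, the replication clamp, 6112, 7237 and 5842 against 6631, 8341 and 6648; both overlapped. Klf4CN replicate 2 was the highest of the 6 arrays for both, and it was also the array with the highest retinal marker level. With a covariate for the pigment and retinal marker level the list's median was 0.026, against 0.20 without it. Whether retinal tissue had a part in this list's difference was not tested. Leaving out WT replicate 2 or Klf4CN replicate 1 brought the members higher without overlap to 10 of 29 (34.5%), beside 12.5% and 11.7% of all genes, and the median was 0.055 without Klf4CN replicate 2.

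**Figure D2:**
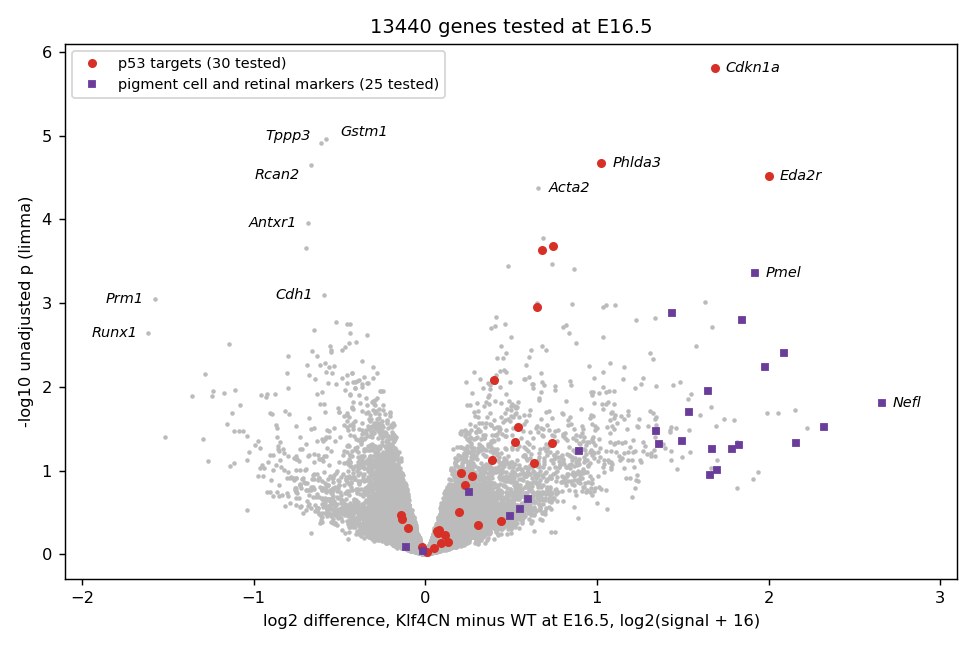
Log2 difference between lenses labelled Klf4CN and WT (x axis) against -log10 of the unadjusted limma p (y axis) for 13440 genes; red points are the 30 tested p53 targets and purple squares the 25 tested markers of pigment cells and retina. Cdkn1a stands highest, and the retinal and pigment markers reach the largest differences at less extreme p.

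Below WT, 3 genes had a limma adjusted p between 0.0554 and 0.0595 and did not pass the test. Gstm1, a glutathione transferase, read 7619.7, 6562 and 6857 on the WT arrays and 4665, 4631 and 4753 on the Klf4CN arrays. The mutant arrays were tightly grouped below WT, with a difference of -0.58 ± 0.081 (SE) and a ratio of means of 0.668. The 3 further Gstm1 probe sets gave -0.44, -0.41 and -0.15, and the first of these was without overlap. Gstm genes are close copies, and the probe set that stood for Gstm1 can read several of them; Gstm5 (-0.24) and Gstm2 (-0.23) were also below 0. Tppp3, a tubulin-binding protein, read 2005, 1971 and 1913 in WT and 1285, 1288 and 1282 in lenses labelled Klf4CN, a difference of -0.60 ± 0.086 (SE). Its signals were nearly the same within each group. Rcan2, an inhibitor of calcineurin, read 4704, 4312 and 4255 against 3213, 2589 and 2583, a difference of -0.67 ± 0.10 (SE); a second Rcan2 probe set gave -0.46, also without overlap.

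Several cell surface and matrix genes followed, also not past the test. Antxr1, a collagen-binding receptor, read 3366, 3502 and 3428 in WT and 2463, 2210 and 1787 in the mutant label, a difference of -0.68 ± 0.12 (SE). Its other probe set was dim, with means of 43.8 on the WT and 60.3 on the Klf4CN arrays. That probe set was higher rather than lower (0.43), with overlap. The mean of the Antxr1 probe sets gave -0.13, so the direction rests on 1 probe set. Emilin3, an extracellular matrix glycoprotein, read 1274, 1181 and 1192 against 798, 756 and 686, a difference of -0.69 ± 0.13 (SE). The groups of both genes were far apart. Cdh1, E-cadherin, the adhesion molecule that joins lens epithelial cells, read 7124, 5472 and 6771 in WT and 5068, 3679 and 4122 in lenses labelled Klf4CN, a difference of -0.59 ± 0.13 (SE) (limma adjusted p = 0.592). With the pigment and retinal marker mean as a covariate the Cdh1 difference was -0.37. Fzd1, a Wnt receptor, gave -0.46, Niban2, a survival-associated scaffold protein, -0.52, Uox, urate oxidase, -0.65, Plekhg1 -0.44, and Slc38a1, a glutamine transporter, -0.44. Each was lower without overlap. For Plekhg1 and Slc38a1 a second probe set pointed the other way, at 0.092 and 0.25, each with overlap.

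**Figure D3:**
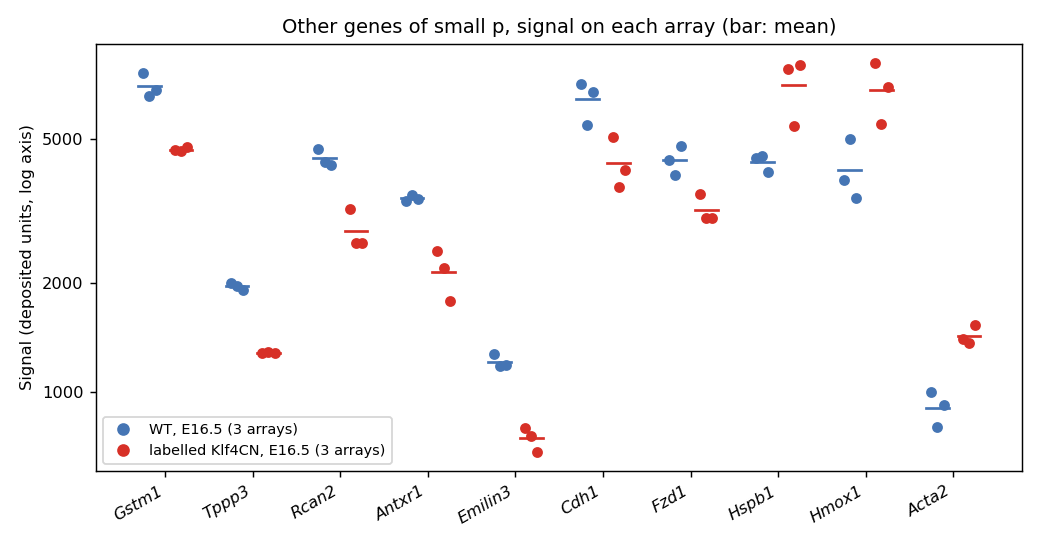
Signals of 10 further genes of small p on each of the 6 arrays (log axis, deposited units; points are arrays and bars group means). Gstm1, Tppp3, Rcan2, Antxr1, Emilin3, Cdh1 and Fzd1 are lower and Hspb1, Hmox1 and Acta2 higher on all 3 arrays labelled Klf4CN, and Cdkn1a apart no gene passed the test.

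Above WT and outside the p53 list, the genes of smallest p had varied roles. Acta2, smooth muscle actin, read 1000.2, 799.6 and 919.6 on the WT arrays and 1401, 1369.8 and 1532 on the Klf4CN arrays, a difference of 0.66 ± 0.11 (SE) (limma adjusted p = 0.0802). Hspb1, a small heat shock protein, read 4445, 4494 and 4049 against 7812, 5428 and 8002, a difference of 0.69 ± 0.13 (SE); its second probe set gave 1.21. Hmox1, haem oxygenase, read 3869, 4999 and 3434 against 8099, 5513 and 6957, a difference of 0.74 ± 0.15 (SE). In all 3 genes the lowest mutant array was above the highest WT array, and Klf4CN replicate 2 was the lowest of the mutant arrays. Me1, a cytosolic source of NADPH, read 873, 828 and 996 against 1270.2, 1221 and 1284, a difference of 0.48 ± 0.099 (SE). Serpinb6b, a protease inhibitor, read 465, 434 and 300.1 against 723, 596 and 901 (0.87), and Hpcal1, a calcium sensor, 479, 635 and 469 against 741, 947 and 814 (0.65). C2, a complement component, read 38.1, 9.2 and 13.5 in WT, below the filter, and 98, 97.2 and 76.5 in the mutant label (1.63). Limma adjusted p-values in this group ran from 0.0802 for Acta2 to 0.592 for Hpcal1. Of the 25 genes of smallest p in either direction, 10 had another probe set above the filter, and for 7 of those every such probe set pointed the same way.

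The tissue label was checked against lens markers. Crystallins, the refractive proteins of fibre cells, were among the brightest signals on every array, with Cryaa at 21881, 20822 and 24306 in WT and 18603, 20669 and 15227 in lenses labelled Klf4CN. Of 14 tested crystallins 13 were below 0 and 5 were lower without overlap (35.7%, against 6.64%), with a median of -0.21 and a range from -0.31 to 0.34. Alpha A crystallin, Cryaa, differed by -0.31 ± 0.11 (SE), and the beta crystallin Cryba2 and gamma crystallins Crygs and Cryga by -0.21, -0.19 and -0.24. Crybb2, a beta crystallin that accumulates late, was the exception, reading 3272, 2946 and 5209 against 3982, 4534 and 5613 (0.34) with overlap. No crystallin passed the test. Of the bright control probe sets, those for Cre and Gapdh gave -0.13 to -0.21, with no overlap, and the 3 for beta-actin -0.083, -0.062 and 0.021, with overlap. The median of the crystallins was -0.11 after quantile normalization. The count without overlap went to 10 without WT replicate 1 and 11 without Klf4CN replicate 2, beside 11.3% and 12.5% of all genes.

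Fibre genes other than crystallins lay slightly below 0. Of 12 tested, 11 were below 0 and 3 were lower without overlap, against 6.64% of all genes. The median was -0.10, or -0.015 after quantile normalization. Hsf4, a heat shock factor that fibre cells need, read 2572, 2149 and 2914 in WT and 2136, 1906 and 1822 in the mutant label, a difference of -0.37 ± 0.12 (SE). Lim2 (MP20), a fibre membrane protein, gave -0.20 and Tdrd7, an RNA granule protein, -0.12. The water channel Mip (-0.15), the beaded filament genes Bfsp1 (-0.14) and Bfsp2 (-0.024), the gap junction gene Gja3 (-0.093) and Dnase2b, the nuclease that clears fibre DNA (-0.31), overlapped.

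Among 17 tested genes of the lens epithelium the median was -0.19, or -0.089 after quantile normalization. Below 0 were 12, and 5 were lower without overlap, against 6.64% of all genes. Beside Cdh1 these were Tfap2a, an AP-2 factor of surface ectoderm (1226, 1219.8 and 1358 against 927, 954 and 1119, -0.34), the amino acid transporter Slc38a3 (-0.45), the PDGF receptor Pdgfra (3799, 3398 and 3473 against 3165, 2743 and 1999.7, -0.45) and Igfbp7, a secreted binding protein (-0.19). Wls, which carries Wnt proteins to the surface, was higher without overlap at 0.28. Aqp5, a water channel, read 77.7, 136 and 166 in WT and 24, 43.6 and 85 in lenses labelled Klf4CN, a difference of -1.14 ± 0.31 (SE) with overlap at 1 array. The epithelial factor Foxe3, which keeps lens epithelium dividing, read 928, 684 and 1083 against 791, 776 and 583, with overlap.

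Factors that specify the lens gave no called gene. Of 22 tested transcription factors 11 were above and 11 below 0, and the median was -0.025. Lower without overlap were 4, against 6.64% of all genes: Hsf4, Tfap2a, Pitx3 and Gata3. Pitx3, a homeodomain factor of lens epithelium, read 3338, 2973 and 3388 in WT against 2707, 2568 and 2502, a difference of -0.32 ± 0.12 (SE). Pax6, the eye selector gene, read 3573, 4564 and 3903 against 3681, 5685 and 3353 and Maf, an activator of crystallin genes, 25855, 23652 and 25151 against 24972, 21850.1 and 25073. Prox1, which fibre cells need to elongate, read 3244, 5295 and 3377 against 5561, 3885 and 4705, and Sox2 had a difference of 0.0058. These 4 overlapped. The factors with the largest positive values, Lhx2 (1.94) and Sox11 (0.97), followed the retinal markers array by array, with Lhx2 at 6.4, 1149.8 and 396 in WT and 467, 2398 and 503 in the mutant label.

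Among 18 tested Kruppel-like and Sp factors, Klf4 included, the groups of every gene overlapped; the median was 0.14. Klf5, a close relative that is prominent in corneal epithelium, read 78.6, 101 and 124 against 79.5, 105 and 201. Klf3 had a difference of 0.27, Klf6 of -0.11, Klf9 of 0.23 and the general activators Sp1 and Sp3 of 0.11 and 0.14.

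Epithelial junction and keratin genes lay on both sides of WT. Of 22 tested, 4 were higher and 2 lower without overlap, against 5.16% and 6.64% of all genes. The median was 0.245. Krt18 and Krt8, partner keratins of simple epithelia, read 105, 123 and 179 against 238, 439 and 190 (0.95 ± 0.28 (SE)) and 60.5, 59 and 91.1 against 95.3, 112 and 118 (0.54). The tight junction gene Cldn4, whose WT mean was below the filter, and the p53 target Perp were the other two that were higher. Cdh1 and beta-catenin, Ctnnb1 (24555, 25011 and 25846 against 23485, 24022 and 22443, -0.11), were the 2 lower genes. N-cadherin, Cdh2, which fibre cells keep, overlapped at -0.047. Of 10 tested genes of surface ectoderm and cornea none was higher without overlap, against 5.16% of all genes. Lower without overlap were 2, Tkt (-0.11) and Aldh3a1, against 6.64%. Aldh3a1, abundant in corneal epithelium, read only 3.6 to 8.2 over the 6 arrays, and 2 probe sets of the corneal keratin Krt12 read 1.6 to 43.4.

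Antioxidant genes were evenly divided, with 4 higher and 3 lower without overlap among 27 tested, against 5.16% and 6.64% of all genes. The median was 0.026. Higher were Hmox1, Me1, Gsto1, an omega class transferase (1293, 1151 and 1307 against 1492, 1615 and 1799, 0.38 ± 0.097 (SE)), and glutathione reductase, Gsr (0.22). Lower were Gstm1, Gstm5 and peroxiredoxin Prdx2 (-0.061). With the mean of their probe sets Gsr gave -0.075 and Prdx2 0.038. Nqo1, a quinone reductase that Nrf2 controls, overlapped at 0.073, as did both subunits of glutathione synthesis, Gclc (-0.0042) and Gclm (0.27).

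Chaperones of the heat shock list had a median of 0.22. Without overlap 3 of 17 were higher and none lower, against 5.16% and 6.64% of all genes. Beside Hspb1 these were Hspa4l (985, 1139 and 1049 against 1169, 1420 and 1308, 0.29) and Hspb8 (228, 175 and 195 against 250.2, 292 and 271, 0.42). The list's median was 0.049 with the pigment and retinal marker covariate. In the unfolded protein response, 3 of 21 were higher (Xbp1 0.21, Sdf2l1 0.37, Atf4 0.11) and 3 lower (Pdia6 -0.17, Atf6 -0.28, Calr -0.077), and the median was -0.0042. With the mean of its probe sets Atf6 gave 0.072. Ddit3, the death-linked factor CHOP, read 326, 345 and 278 in WT against 312, 249.8 and 291, with overlap.

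Immediate early genes gave 2 of 16 higher without overlap, against 5.16% of all genes. Egr1, a zinc finger factor induced by growth signals, read 230.1, 238 and 374 in WT and 436, 435 and 723 in lenses labelled Klf4CN, a difference of 0.88 ± 0.24 (SE). Zfp36, which destabilises cytokine mRNAs, read 336, 283 and 262 against 603, 417 and 432, a difference of 0.68 ± 0.19 (SE). Both were above WT on every mutant array, with a limma adjusted p of 0.815. Fos (0.38), Jun (-0.11) and Ier2 (0.093) overlapped, and the list's median was 0.096. Contractile genes had a median of 0.21 over 14 genes, of which Acta2 and the myosin light chain Myl9 (794, 908 and 776 against 976, 961 and 1162, 0.32) were higher without overlap.

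Signalling lists gave no called gene. Beside their counts without overlap stand 5.16% of all genes higher and 6.64% lower. In the FGF list, which drives fibre formation, the adhesion partner of FGF receptors Flrt3 read 1353, 1311 and 1575 in WT and 990, 1019 and 1039 in the mutant label (-0.47 ± 0.16 (SE)), and the receptor Fgfr2 1063, 1067 and 1053 against 926, 763 and 814 (-0.35 ± 0.12 (SE)). Both were lower without overlap, as was the dim receptor Fgfr4. Dusp6, a phosphatase that ERK signalling induces, read 2567, 2272 and 1976 against 2729.7, 2764 and 3214 (0.36 ± 0.13 (SE)) and was the 1 higher gene of 17. In the BMP and TGF-beta list of 28, the target Id1 read 3409, 4052 and 2957 against 4688, 4161 and 4563 (0.37 ± 0.13 (SE)) and the receptor Acvr1 gave 0.21, both higher, while the receptor Bmpr1a gave -0.16. The Wnt list had 7 of 26 lower and none higher without overlap, beside 6.64% of all genes lower, and a median of -0.056. The 7 were the receptors Fzd1 and Fzd6 (-0.13), the ligand Wnt5b (-0.20), the secreted inhibitors Sfrp1 (-0.23) and Dkk3 (-0.16), the factor Tcf7l1 (-0.21) and Ctnnb1. Axin2, a general Wnt target, overlapped at 0.083. In the Notch list of 19, the ligand Dll4 read 201, 119 and 150.1 against 106, 65.1 and 100.1 (-0.70), the only one without overlap; with the brightest probe set on the E16.5 arrays its difference was 0.11.

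Capsule and basement membrane genes had a median of -0.050 over 23 genes. Without overlap Nid2 was higher (0.27) and Emilin3 and Sparc lower, against 5.16% and 6.64% of all genes. Sparc differed by -0.11, but by 0.34 with the mean of its probe sets. The type IV collagen genes Col4a1 to Col4a6 overlapped. Glycolysis and hypoxia genes had a median of -0.15, and 5 of 20 were lower without overlap (25%, against 6.64%): Ldha (13489, 13232 and 13453 against 11849, 12017 and 11656, -0.18), Aldoa (-0.20), Tpi1 (-0.15), Pfkl (-0.28) and Pgam1 (-0.17). None was higher. That count went to 12 without Klf4CN replicate 1 and 9 without WT replicate 2, beside 11.5% and 13.6% of all genes. Sterol synthesis genes had a median of -0.14, with Fdps (-0.18) and Fdft1 (-0.11) of 17 lower without overlap, against 6.64% of all genes. The 13 housekeeping and respiratory chain genes had a median of -0.068, with Rplp0 (-0.19) and Rpl13a (-0.11) lower and Tbp (0.29) higher without overlap. The lower genes named from these 3 lists are bright, and of the bright control probe sets those for Gapdh and Cre lay below 0 without overlap while those for beta-actin overlapped; their part in these differences was not tested.

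**Figure D4:**
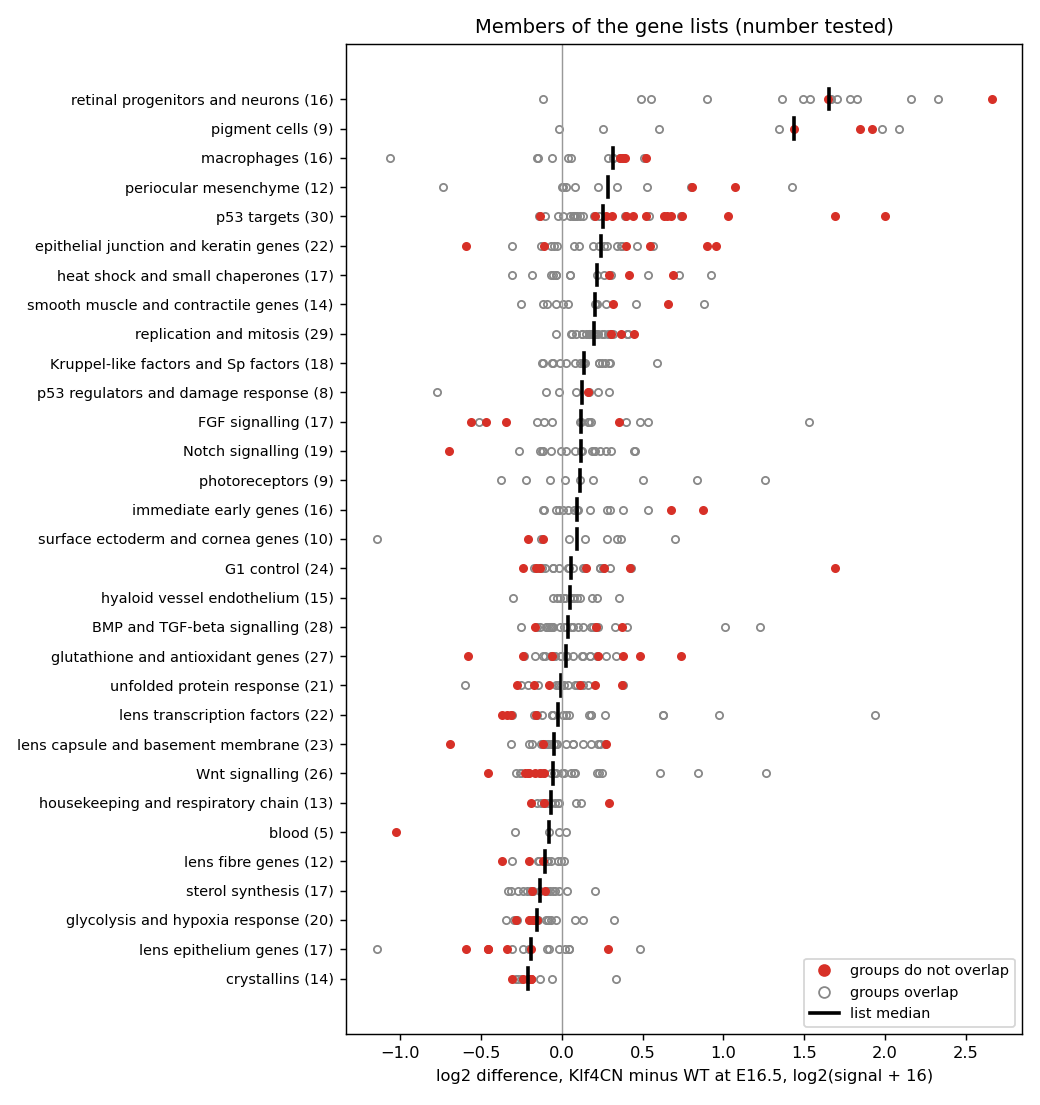
Log2 differences between lenses labelled Klf4CN and WT (x axis) for the tested members of 31 gene lists (y axis, number tested in brackets), with filled points where the groups do not overlap and a black bar at each list's median. Retinal and pigment cell markers have the highest medians (1.65 and 1.44) and crystallins the lowest (-0.21), and the p53 targets have 13 higher members without overlap.

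The largest list medians were those of markers of neighbouring tissues. The arrays measured whole dissected lenses in bulk, and in such samples fewer cells of a type and less RNA per cell cannot be told apart. Of 9 tested pigment cell markers 8 were above 0, with a median of 1.44. Higher without overlap were 3 (33.3%, against 5.16% of all genes). Pmel, a melanosome matrix protein, read 346, 409.7 and 1022 in WT and 2398, 3280 and 1078 in lenses labelled Klf4CN, a difference of 1.92 ± 0.40 (SE) (limma adjusted p = 0.366). Tyrp1, a melanin synthesis enzyme, read 44.3, 168 and 181 against 338, 889 and 300.2 (1.84 ± 0.46 (SE)) and Gpnmb 116, 89.9 and 176 against 508, 502 and 181 (1.44). Dct read 107, 219 and 472 against 1512, 2098 and 321 and overlapped. Klf4CN replicates 1 and 2 were the highest arrays for all 4 genes, and Klf4CN replicate 3 was the lowest of the mutant arrays. Without Klf4CN replicate 3 the members higher without overlap were 7 of 9 (77.8%, against 8.25% of all genes), and without WT replicate 3 they were 6 of 9 (66.7%, against 9.95%). The mean log2(signal + 16) of the list was 7.39, 7.83 and 8.52 on the WT arrays and 9.34, 9.90 and 8.32 on the Klf4CN arrays.

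Markers of retinal progenitors and neurons had the highest list median, 1.65 over 16 genes, with 15 above 0. Only 2 were higher without overlap (12.5%, against 5.16% of all genes). Nefl, a neurofilament protein, read 8.9, 683 and 638 in WT and 896, 1796 and 1722 in the mutant label, a difference of 2.66 ± 0.94 (SE), and Nefm 53, 329 and 351 against 396, 909.8 and 689, a difference of 1.65 ± 0.55 (SE). Atoh7, which specifies ganglion cells, read 116, 3972 and 1248 against 1741, 5792 and 2034 and Isl1 3.2, 535 and 322 against 465, 1261 and 718; both overlapped. WT replicate 1 was near background for most of these genes, and Klf4CN replicate 2 was highest. The count without overlap went from 2 to 10 of 16 (62.5%) without WT replicate 2 or Klf4CN replicate 1, beside 12.5% and 11.7% of all genes, and the median fell to 0.55 without WT replicate 1. The mean of the list was 6.12, 9.24 and 8.56 on the WT arrays and 8.71, 10.2 and 9.49 on the Klf4CN arrays. A covariate for the pigment and retinal marker level was also added to the fit of the 10 arrays. It was the mean of these same markers, so lower medians of their own follow largely from its making. The retinal median was then -0.40 and the pigment median 0.58. Cdkn1a differed by 1.88 (limma adjusted p = 0.109) and the p53 target median was 0.28. The part of these markers in the other results was not tested further.

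**Figure D5:**
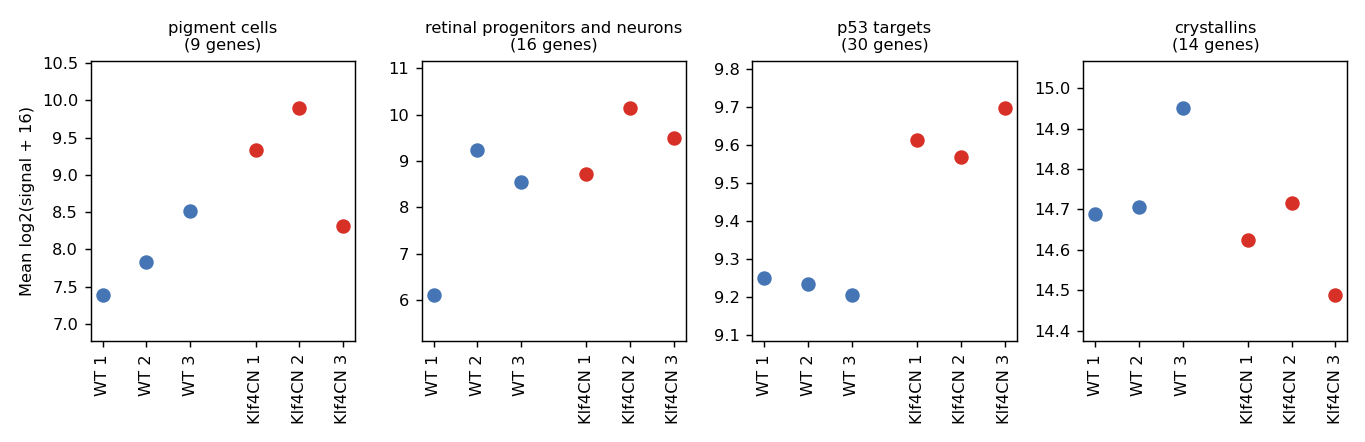
Mean log2(signal + 16) over 4 gene lists (y axis, separate scale in each panel) on each of the 3 WT and 3 Klf4CN arrays (x axis). The p53 target means of the 2 groups are apart (9.21 to 9.25 against 9.57 to 9.70), while those of the pigment cell, retinal and crystallin lists overlap.

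Other cell types differed less. Macrophage markers had a median of 0.32 over 16 genes, with 12 above 0 and 4 below. Those below were Cd14 (-1.06), Lyz2 (-0.15), Ptprc (-0.15) and Cd163 (-0.061), each with overlap. Higher without overlap were 4 of 16, against 5.16% of all genes. These were the complement genes C1qa (1422, 1549 and 1219 against 1821, 1850.3 and 1815) and C1qc and the adaptors Fcer1g and Tyrobp. The receptor Csf1r read 2245, 2553 and 1947 against 3189, 2409 and 2832. Periocular mesenchyme markers had a median of 0.28 over 12 genes, with 11 above 0 and 1, Fmod (-0.73), below. That median was 0.087 without Klf4CN replicate 3 and 0.45 without Klf4CN replicate 1. Higher without overlap were 2, against 5.16% of all genes. These were Col3a1 (371, 396 and 414 against 734, 658 and 706, 0.80) and Dcn, decorin. Dcn read 78.6, 68.2 and 94.9 against 299.9, 214 and 97.2, a difference of 1.07. Col1a1 overlapped. Endothelial markers of the hyaloid vessels had a median of 0.049 over 15 genes with none apart, and Pecam1 read 247, 219 and 216 against 232, 190 and 293. Photoreceptor markers read at most 121.5 (Sag) on any array, except Crx (9.5, 183 and 74.7 against 123, 263 and 147). Of 5 tested blood markers 1, the dim embryonic globin Hbb-bh1, was lower without overlap.

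By size alone, the genes furthest from WT without overlap were mostly dim or retinal. The 12 largest positive differences were those of Nefl, Eda2r, Pmel, Tyrp1, Ly6h, Tmem130, Cdkn1a, 6330409D20Rik, Nefm, C2, Cbx3 and Dcdc2a, from 2.66 down to 1.48. Tmem130 (4.9, 122 and 101 against 169, 231 and 261) and Ly6h had their lowest signal on WT replicate 1, as the retinal markers did. Cbx3 is a heterochromatin protein; its single-symbol probe set of highest mean read 12.3, 13.3 and 8.4 in WT and 88.1, 52 and 59.5 in lenses labelled Klf4CN. The 12 largest negative differences were those of Runx1, Prm1, Krtap12-1, Omg, Cyp4f15, Acad12, Odf1, Cnksr1, Ifi203, Mpp2, Lrrtm3 and Slc2a5, from -1.61 to -1.08. Runx1, a transcription factor of blood and epithelia, read 75.9, 122 and 199.8 against 16, 70.2 and 18.7, and its other probe set above the filter, the brightest on the E16.5 arrays, gave -0.030 with overlap. Prm1, a sperm protamine, read 77.3, 93.2 and 92.8 against 13.6, 26.9 and 17. Apart from Lrrtm3 and Krtap12-1 none of these 12 read above 199.8 on any array, and none passed the test.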

How the data were processed

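Total RNA of pooled whole lenses was measured on Affymetrix mouse arrays, 1 per preparation. The deposited values were linear intensities per probe set, made by the authors with GCOS 1.4 per the submitters' processing notes. No other step of theirs is recorded in the sources used here. A mean trimmed by 2% at each end equalled 500 on every array. Of 45101 probe sets, 64 were controls, 34945 carried 1 symbol, 932 several and 9160 none.

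Signals were analysed as log2(signal + 16) without further scaling. The brightest probe set, by its mean over 10 arrays, stood for a gene, and a gene was tested where that mean reached percentile 40 over all probe sets (a signal of 45.09). One limma fit (3.58.1, R 4.3.3) held the 10 arrays as 4 group means, with eBayes and an intensity trend; tests were two-sided. Adding the 4 adult arrays gave 6 residual degrees of freedom. With 3 against 3 arrays an exact permutation test cannot go below 0.1, so none is given. The fit was tested on simulated data.

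Genes named were Klf4, called genes, the 12 of smallest p and the 12 largest without overlap in each direction, and members of 31 lists holding 603 genes, of which 525 were tested. The members and lists were chosen with earlier results of these data known. Alternatives were other scalings, offsets, filters, probe set rules, array weights, the replicate block, a marker covariate and leaving out each array.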

Additional observations from a re-analysis of the deposited data

Results flagged for a closer look

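The 3 probe sets for mouse 18S ribosomal RNA, controls that no comparison of genes used, read higher on the arrays labelled Klf4CN than on the WT arrays, with no overlap. The 5′ probe set read 21780 on average against 1869, an 11.65-fold ratio of means. The middle probe set read 2950 against 1209 and the 3′ probe set 1106 against 516. The cause was not tested.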

How the results depend on the processing

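The number of genes called was 1, and stayed at 1 with median centring, with an offset of 1 or 64, without the filter, with it at percentile 60 or on the E16.5 arrays, and every probe set by itself. It was 3 with quantile normalization (Cdkn1a, Gstm1, Tppp3), 8 with array weights (Cdkn1a, Phlda3, Eda2r, Trp53inp1, Acta2, Gstm1, Tppp3, Rcan2), 7 at an adjusted p under 0.1, and 0 with probe sets averaged per gene, without the intensity trend, on the E16.5 arrays only, with the marker covariate and at an adjusted p under 0.01. Leaving out 1 array at a time gave 0 to 3 calls: beside Cdkn1a these were Fgf12 and Mb21d2 without WT replicate 3, Rcan2 without Klf4CN replicate 1 and Hspb1 without Klf4CN replicate 2, and there were 0 without WT replicate 1 or 2, Klf4CN replicate 3 or any adult array. Cdkn1a kept its direction in all 26 refits and was called in 15. It was not called with averaged probe sets (1.92), without the trend (1.69), on the E16.5 arrays only (1.69) or with the covariate (1.88), and nor was it at an adjusted p under 0.01 (1.69); leaving out 1 array gave 1.495 to 1.81. Klf4 was above 0 and not called in all 26. The p53 target median ran from 0.21 to 0.32. Same-numbered samples deviated together with correlations of 0.269, 0.242 and 0.051, and differently numbered ones with -0.28 to 0.063. Every array but WT replicate 3 correlated best with its own number. The main fit did not pair the samples, and whether the number stands for shared handling was not tested. The replicate block gave 6 calls (Cdkn1a, Phlda3, Rcan2, Snap25, Dapl1, Gstm1), or 9 on the E16.5 arrays only (the first 4 of these, Crmp1, Dpysl3, Igfbp5, Sncg and Stmn2), with Cdkn1a at 1.69 in both. The counts of members without overlap when 1 array is left out were added after the data were seen: 13 to 17 p53 targets higher, 5 to 11 crystallins lower, 3 to 10 replication and mitosis genes higher, 5 to 12 glycolysis genes lower, 3 to 7 pigment cell markers higher and 2 to 10 retinal markers higher. Of the 31 list medians, 26 moved by over 1.5 times and 10 turned sign when 1 array was left out. Of 142 tracked genes whose groups did not overlap, 13 turned direction in a refit. Dll4 did so with the probe set brightest at E16.5. Atf6, Bmpr1a, Cdkn1b, Gsr, Plk2, Prdx2, Sparc and Tbp did with averaged probe sets, and Ctnnb1, Rpl13a and Tkt with quantile normalization. Nefl did with the marker covariate, of which it is itself a member. The number of arrays limits every value; dim genes are limited by signal over background.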

Other observations

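Some genes differed between single arrays rather than between the groups; they were noticed after the values were seen, and nothing was tested on them. Fgf12, an intracellular FGF homologue, read 633.9 and 543.4 on WT replicates 1 and 2, but 3996 on WT replicate 3 and 3167, 3580 and 3040 on the Klf4CN arrays. Its 2 further probe sets split the arrays the same way, at 73.4 and 83 against 491.3 to 613.2, and at 90.3 and 153.5 against 821.3 to 1313.

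The Y-linked genes Eif2s3y and Kdm5d were near background on Klf4CN replicate 2 (13.5 and 4.1) and read 491.5 to 1552 and 251.6 to 420.7 on the other 5 arrays. A Uty probe set read 10.1 on that array and 138.5 to 331.2 on the others. Xist was read on every array, at 3248 to 7494 with its brightest probe set.

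Neutrophil genes also varied from pool to pool. S100a8, a calprotectin subunit, read 3005, 716 and 124.6 on the WT arrays and 1763, 311.6 and 997.1 on the Klf4CN arrays, and S100a9, Ngp and Camp were highest on WT replicate 1 as well.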
